A study of Mus musculus with 16 samples.

Results

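Receptor subunits for glutamate, GABA and glycine were compared across the cell clusters of injured and uninjured mouse spinal cord. The set was defined by gene symbol: AMPA (Gria1 to Gria4), kainate (Grik1 to Grik5), NMDA (Grin1, Grin2a to Grin2d, Grin3a, Grin3b), delta (symbols opening with Grid), metabotropic glutamate (symbols opening with Grm), GABA-A (symbols opening with Gabr), GABA-B (Gabbr1, Gabbr2) and glycine receptor subunits (Glra1 to Glra4, Glrb). It holds 52 of the 55487 symbols counted. The mice were 8-10 weeks old and all carried Cre that tamoxifen activates in cells using the GFAP promoter fragment, either with intact Ryk (Ryk+/+,GFAPcreERT2, here WT) or with Ryk flanked by loxP sites (Rykfl/fl,GFAPcreERT2, here cKO). Each genotype was taken uninjured (treatment given as Sham) or 1, 7 or 14 days (d) after a cut through the dorsal columns of the cervical spinal cord (SCI). That made 8 groups of 2 mice, 16 mice in all, each a library of its own made from spinal cord digested with pronase in the presence of actinomycin D, a blocker of transcription, and cleared of dead cells. The submitters sorted the 18203 cells into 17 clusters: endothelial (Cluster 1), astrocyte (2, 5 and 7), neuron (3), oligodendrocyte (4 and 8), microglia (6 and 10), pericyte (9), oligodendrocyte precursor (OPC, 11), immune (12), unknown (13), fibroblast (14), Schwann cell (15), myeloid (16) and red blood cell (17).

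AMPA, kainate and NMDA receptors are cation channels opened by glutamate, whereas GABA-A and glycine receptors are anion channels that carry fast inhibition. Metabotropic and GABA-B receptors work through G proteins, and delta subunits resemble the ionotropic glutamate receptors but organize synapses. Glial cells also carry many of these receptors: OPCs receive synaptic input from neurons, and astrocytes express AMPA and GABA-A channels.

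Counts are unique molecular identifiers (UMIs), each standing for a captured RNA molecule read near its 3′ end. Levels are the UMIs of a gene per 1000 × 1000 UMIs (CPM) of a mouse in a cluster, for mice with at least 10 cells of the cluster, averaged over mice and given ± standard deviation (SD). Capture near the 3′ end differs between genes, so levels are compared between clusters for the same gene and not between genes. Log2 ratios between clusters were formed from CPM + 50, and clusters were not tested against each other because they had been made from the same values.

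WT 1 d replicate 2 had 1 cell with 266 UMIs and was left out. The other 15 mice had 208 to 1845 cells (median 1223), 536263 to 9008729 UMIs (median 3032957) and median UMIs per cell of 414 to 3637 (median 1998.5). Receptor UMIs came to 1084 to 37585 per mouse (median 6711), in total 177130 of 53347673, with 18 to 351 neurons per mouse. WT at 1 d was therefore a single mouse, with 18 neurons and 7570 neuron UMIs, and its spread was assumed to be that of the other groups. For 6 mice, all replicate 2, the condition written in the cell names was not that of the library. The library's condition was used, and the tests were repeated with the other.

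Besides this, 166 of 17937 barcodes were found in more than 1 mouse. WT 1 d, WT 7 d, cKO 1 d and cKO 7 d replicate 1, with 414 to 548 median UMIs per cell, shared 28 to 115 barcodes in each of their 6 pairs, and in 89.3 to 93.9% of these the cell lay in the same cluster in both mice. Any other pair shared at most 4. The shared barcodes covered 358 of the 5237 cells in these 4 mice, so results are also given without the mice. Animal numbers below 10000 belonged to the same 4 mice and both uninjured replicate 1 mice (6 in all). The other 9 had numbers of 10000 and above: 2 uninjured, 1 cKO at 1 d, 2 at 7 d and 4 at 14 d. Replicates 1 and 2 were also batches 1 and 2 in the deposited cell table, for each of the 16 mice. Number series and replicate, and so batch, cannot be told apart outside 14 d.

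Ryk counts cannot check the deletion, since 3′ reads may lie outside the deleted piece. In astrocytes (Clusters 5 and 7) Ryk was at 130 and 103 CPM in uninjured WT, 64.0 and 163 in uninjured cKO, 86.7 (WT), 19.2 (cKO, 1 UMI) and 86.8 (cKO) at 1 d, 151 and 139 (WT) and 82.6 and 129 (cKO) at 7 d, and 125 and 115 (WT) and 144 and 139 (cKO) at 14 d. Values of the genotypes overlapped. For cKO against WT after injury the log2 ratio was −0.15 (edgeR SE 0.356, Benjamini-Hochberg adjusted p 1.00).

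Of the 52 members, 0 were without UMIs and 29 had at least 1000. Fewer than 20 UMIs were found for Gabra6 (14), Gabrr1 (15), Grik2 (16) and Grm6 (2), named after their values were seen. Among the 48 others, mean CPM was highest in neurons for 18 (37.5%), in OPCs for 12 (25%) and in astrocyte Cluster 7 for 8 (16.7%). For all 24488 genes with at least 20 UMIs the shares were 12.4, 5.66 and 6.48%. Over the alternative ways of counting, 15 to 20 members were highest in neurons, 11 to 14 in OPCs and 7 to 10 in Cluster 7. Receptor genes made up, of the UMIs pooled over mice, 1.02% in OPCs, 0.955% in Cluster 7, 0.835% in neurons, 0.345% in oligodendrocyte Cluster 4, 0.279% in pericytes, 0.249% in Cluster 5, 0.204% in Cluster 2, 0.151% in Cluster 8, 0.122% in red blood cells and 0.0336% in endothelial cells. This order depended on the pooling: medians over mice were 1.37% in neurons, 1.17% in OPCs and 0.960% in Cluster 7 with animal numbers below 10000, and 0.787, 0.907 and 0.931% with numbers of 10000 and above.

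**Figure D1:**
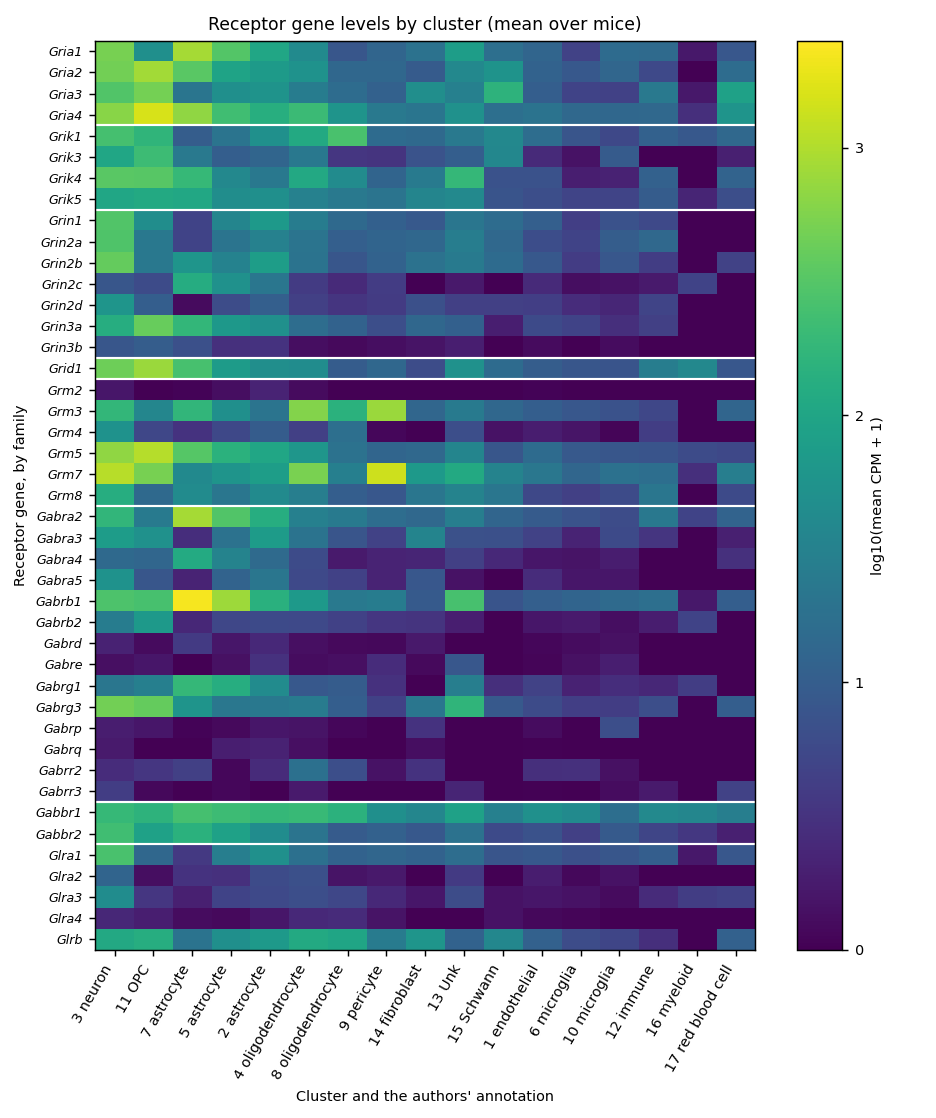
A set of 43 receptor genes, each with at least 20 UMIs (vertical axis), in the clusters of the submitters (horizontal axis), colour giving log10 of mean CPM + 1 over mice. Gabrb1 reached 2231 CPM in Cluster 7 and Grm7 1394 CPM in pericytes.

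Markers of the cell types, summed, were highest in the clusters named for them: neurons 14042 CPM in Cluster 3, astrocytes 15151 in Cluster 5 and 10972 in Cluster 7, OPCs 4565 in Cluster 11, oligodendrocytes 52682 in Cluster 8 and 35406 in Cluster 4, pericytes 12757 in Cluster 9, endothelial cells 15057 in Cluster 1, microglia 19651 in Cluster 6 and 13110.4 in Cluster 10, fibroblasts 14693 in Cluster 14, Schwann cells 44082 in Cluster 15 and red blood cells 259933 in Cluster 17. Transcripts spread from broken cells were gauged in endothelial and red blood cells. At least 1 UMI of Grin1, the obligatory NMDA subunit, was found in 35.6% of 2486 neurons (95% interval 33.8 to 37.6; median 1848 UMIs per cell), against 1.90% of 4201 endothelial cells (median 890) and 2.52% of 119 red blood cells (median 1339). With cells thinned to 1000 UMIs the shares were 19.1 and 0.910%, and 0 of 67 red blood cells, which allows a share of up to 4.48% (3 counts). Intervals (exact Clopper-Pearson) and this limit cover counting error only. Shares were larger in neurons than in endothelial and in red blood cells for 51 of 52 members, and for 50 after thinning.

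Of the AMPA subunits, Gria1 was highest in Cluster 7 and Gria2, Gria3 and Gria4 in OPCs. Gria4 had 1555 ± 579 CPM in OPCs (805 lowest, 1480 median, 2749 highest of 14 mice), 677 ± 175 in Cluster 7 and 624 ± 271 in neurons (246, 545 and 1115). OPCs exceeded Cluster 7 and neurons in 14 of 14 mice each. Gria1 had 860 ± 335 CPM in Cluster 7 (192, 931 and 1358) and 500 ± 242 in neurons (163, 503 and 1027), the former higher in 13 of 15 mice. Gria2, the subunit that keeps calcium out, had 841 ± 362 CPM in OPCs (368, 832 and 1718), 478 ± 253 in neurons (198, 404 and 1189) and 334 ± 138 in Cluster 7, and OPCs were above neurons in 12 of 14 mice. For Gria3 the values were 485 ± 154 in OPCs (269, 458 and 802) and 301 ± 190 in neurons (127, 227 and 793), with OPCs higher in 12 of 14 mice. Gria4 was seen in 65.8% of OPCs (61.9 to 69.5), 4.45% of endothelial and 13.4% of red blood cells, and after thinning in 64.9, 1.92 and 2.99%.

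The mean AMPA mix also varied between classes, which was not tested. In mice with at least 20 UMIs of a family, Gria1 gave 44.0 ± 10.0% of AMPA UMIs in Cluster 7 (15 mice), 25.9 ± 5.22% in neurons (15 mice) and 1.81% in OPCs. Gria4 gave 52.9 ± 4.53% in OPCs (14 mice), 36.8% in Cluster 7, 33.4% in neurons and 63.0% in Cluster 4. The Gria2 part was 25.1% in neurons, 18.02% in Cluster 7 and 28.3% in OPCs. For the summed families, the highest mean was in neurons for 4 of 8 (3 to 5 over the alternatives): NMDA (1182.5 ± 451, against 522 in OPCs and 377 in Cluster 7), metabotropic (2250 ± 1041, against 2196 in pericytes), GABA-B (414 ± 113, against 394 in Cluster 7) and glycine receptors (434 ± 144, against 146 in OPCs). OPCs led for AMPA and kainate (819 ± 178) receptors and Cluster 7 for GABA-A (3523 ± 622; 1536 in neurons). Summed AMPA CPM was 2929 ± 1038 in OPCs, 1902 ± 793 in neurons (median 1790), 1891 ± 487 in Cluster 7 (median 2084) and 676 in Cluster 5. Without the 4 mice that share barcodes neurons were below Cluster 7 for summed AMPA and below pericytes for summed metabotropic receptors.

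**Figure D2:**
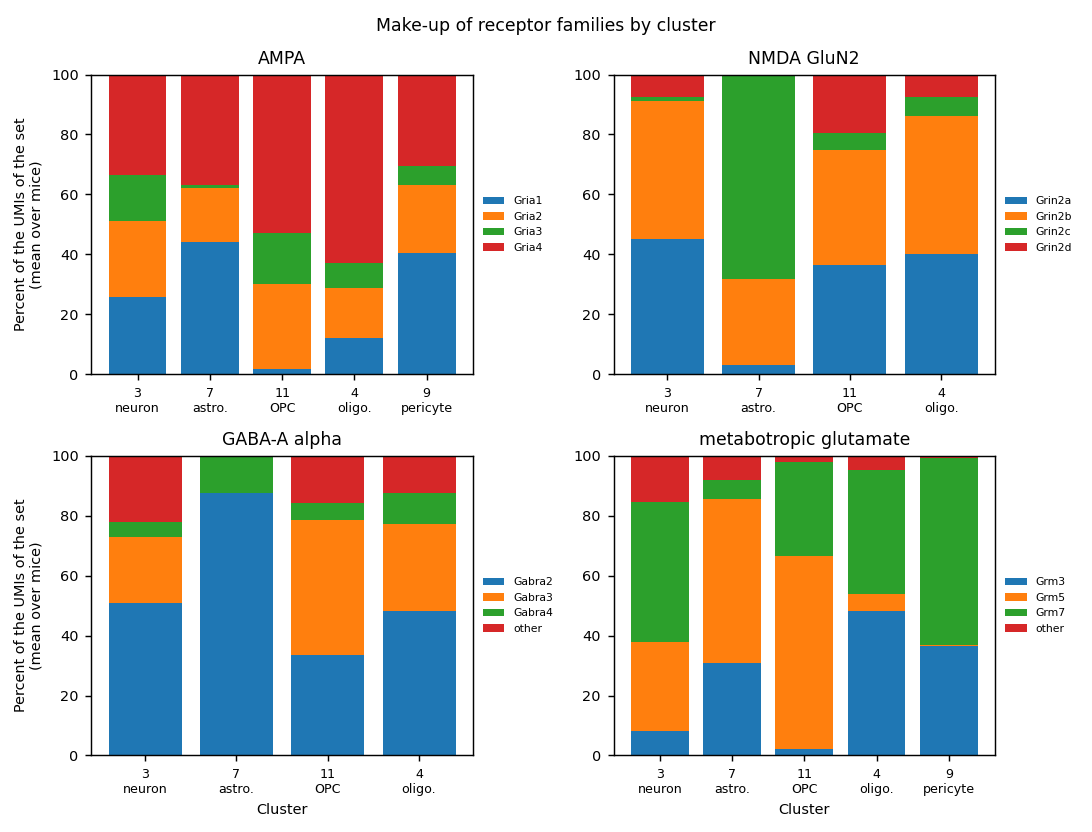
Percent of the UMIs of AMPA, GluN2, GABA-A alpha and metabotropic subunits (vertical axis, weakly counted and remaining subunits pooled as other, mean over mice with at least 20 UMIs of the family) in neurons, Cluster 7, OPCs, Cluster 4 and, for AMPA and metabotropic receptors, pericytes (horizontal axis). Gria1 gave 44.0% of AMPA UMIs in Cluster 7 and 25.9% in neurons.

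Summed kainate CPM was 790 in neurons, 332 in Cluster 8, 326 in Cluster 7 and 282 in Cluster 4. Grik4 had 339 ± 128 CPM in neurons (83.6, 336 and 535) and 326 ± 129 in OPCs (166, 327 and 576), neurons being higher in 5 of 14 mice, and without the barcode-sharing mice the means were 312 and 375, the other order. Below 10000 they were 414 and 227, at 10000 and above 289 and 381. Grik1 reached 264 ± 274 in oligodendrocyte Cluster 8 (6.33, 155 and 766) and 246 ± 135 in neurons (133, 186 and 535). Cluster 8 was above neurons in 5 of 14 mice, so that mean came from a few mice. Grik1 without the barcode-sharing mice was at 149 CPM in Cluster 8 and 184 in neurons, the other order. Grik3 had 212 ± 83.6 in OPCs (124, 181 and 442) and 103 ± 71.6 in neurons (0, 86.0 and 312), OPCs higher in 13 of 14 mice. The high-affinity subunit Grik5 had 115 ± 74.4 in OPCs, 107 ± 31.0 in Cluster 7 and 101 ± 52.7 in neurons, with OPCs over Cluster 7 in 6 of 14 mice. Grik5 without the barcode-sharing mice was at 99.7 in OPCs and 111 in Cluster 7, again the other order. Grik2 had 16 UMIs. Its gene is overlapped on the same strand by 6 other gene models with 67, 36, 18, 22, 34 and 26 UMIs, each over at most 0.898% of its span. Same-strand overlaps were found for 20 of 52 members. Their part in the counts was not tested.

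NMDA subunits differed in the cluster of their highest mean. Grin1 had 295 ± 149 CPM in neurons (98.3, 263 and 684), Grin2a 293 ± 105 (128, 299.6 and 492) and Grin2b 392 ± 283 (128, 293 and 1189). Each was above Cluster 2 in 11 of 11 mice, by log2 1.39, 2.04 and 1.44. Without the 4 mice that share barcodes Grin2b was at 255 CPM in neurons. Grin2d had 57.7 ± 30.8 in neurons, above Cluster 2 in 11 of 11 mice. Grin2c, which magnesium blocks weakly, instead had its highest mean in Cluster 7, 128 ± 43.1 CPM (26.5, 131 and 196), above neurons in 15 of 15 mice and above Cluster 5 in 13 of 14. It gave 68.0 ± 11.4% of GluN2 UMIs in Cluster 7 (10 mice), whereas Grin2a and Grin2b gave 45.2 ± 9.17 and 46.1 ± 9.45% in neurons (14 mice). Grin3a, which lowers calcium entry, was highest in OPCs with 409 ± 104 CPM (249, 392 and 619), against 177 ± 58.9 in Cluster 7 (64.4, 174 and 287) and 132 ± 76.4 in neurons, and OPCs exceeded Cluster 7 in 14 of 14 mice.

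The delta subunit Grid1 had 784 ± 201 CPM in OPCs (497, 786 and 1215), 445 ± 123 in neurons (167, 465 and 677) and 253 ± 62.1 in Cluster 7, OPCs above neurons in 14 of 14 mice.

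Metabotropic receptors gave pericytes their only named members. Grm7, a presynaptic autoreceptor in neurons, had 1394 ± 548 CPM in pericytes (603, 1606 and 2191), 1079 ± 587 in neurons (336, 858 and 2231), 511 ± 253 in Cluster 4 (162, 561 and 1130) and 500 ± 197 in OPCs. Pericytes were above neurons in 10 of 15 mice and above Cluster 4 in 15 of 15. With animal numbers below 10000 mean Grm7 was 1631 in neurons and 1580.0 in pericytes, the other order, and with numbers of 10000 and above 711 and 1269.8. Grm3 had 776 ± 240 in pericytes (317, 799 and 1068), 592 ± 261 in Cluster 4 (89.2, 592 and 1118), 179 ± 98.9 in neurons and 172 ± 66.2 in Cluster 7, pericytes being higher than Cluster 4 in 10 of 15 mice and than neurons in 15 of 15. Cells with Grm7 made up 60.4% of pericytes (57.0 to 63.7; median 1420.0 UMIs), 4.59% of endothelial and 10.1% of red blood cells, after thinning 55.5, 1.97 and 4.48%. Without the barcode-sharing mice pericyte Grm7 was at 1409.8 CPM.

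Grm5, coupled to calcium release, had 1055 ± 324 CPM in OPCs (615, 1048 and 1642), 682 ± 365 in neurons (282, 513 and 1321) and 319 ± 156 in Cluster 7, OPCs above neurons in 10 of 14 mice. This order came with the number series: mean Grm5 was 1046 in OPCs and 1052 in neurons below 10000, and 1060 and 435 at 10000 and above. The presynaptic Grm8 (131 ± 73.3) and Grm4 (52.9 ± 23.4) were highest in neurons, above the next cluster in 12 of 15 and 12 of 14 mice. Within the family Grm7 and Grm5 gave 46.5 and 29.7% in neurons, Grm5 gave 64.3 ± 10.8% in OPCs (13 mice) and 54.7% in Cluster 7, and Grm7 and Grm3 gave 62.3 ± 8.24 and 36.4 ± 7.90% in pericytes (15 mice).

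Among GABA-A subunits, Gabrb1 had 2231 ± 514 CPM in Cluster 7 (1384, 2230 and 3066), 785 ± 856 in Cluster 5 (144, 266 and 2569) and 285 ± 84.0 in neurons (182, 264 and 476). Cluster 7 exceeded neurons in 15 of 15 mice (log2 2.77) and Cluster 5 in 14 of 14 (2.04). Gabra2 had 883 ± 192 in Cluster 7 (550, 929 and 1149), 298 ± 199 in Cluster 5 and 172 ± 73.2 in neurons, with Cluster 7 above neurons in 15 of 15 mice (2.10). Gabra4 (118 ± 40.3) and Gabrg1 (183 ± 50.9) were also highest in Cluster 7, above neurons in 15 of 15 mice each (1.38 and 1.71) and above Cluster 5 in 13 of 14 each. Cells with Gabrb1 made up 83.1% of Cluster 7 (80.6 to 85.4), 29.2% of Cluster 5 (median 1377 UMIs), 2.45% of endothelial and 5.88% of red blood cells, after thinning 82.2, 18.1, 1.01 and 2.99%. Without the barcode-sharing mice Gabrb1 was at 2281 ± 548 CPM in Cluster 7 and at 453 in Cluster 5.

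In neurons, Gabrg3 had 476 ± 385 CPM (124, 312 and 1585), above OPCs in 8 of 14 mice. Without the barcode-sharing mice Gabrg3 was at 288 CPM in neurons and 321 in OPCs, the other order. Gabra3 (75.3 ± 55.4) and the mostly extrasynaptic Gabra5 (53.5 ± 61.0) had their highest means in neurons as well, above Cluster 2 in 6 and 9 of 11 mice. For Gabra3 the mean of Cluster 2 was close (73.5), and without the barcode-sharing mice it was the higher (80.8 against 65.6). Gabrb2 had 68.1 ± 42.9 in OPCs (13.9, 59.6 and 152), above neurons in 12 of 14 mice. Gabrb1 made up 98.1 ± 1.12% of beta UMIs in Cluster 7 (15 mice), but 46.6 ± 5.35% in neurons (14 mice). The alpha share of Gabra2 was 87.4 ± 4.91% in Cluster 7 and 50.9 ± 4.29% in neurons (11 mice), and the gamma share of Gabrg1 in Cluster 7 was 80.1 ± 11.5% (10 mice). Gabrg3 gave 80.1 ± 10.5% of gamma UMIs in neurons (13 mice) and 90.9 ± 7.69% in OPCs (10 mice).

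Of the GABA-B pair, Gabbr1 had 245 ± 69.4 CPM in Cluster 7 (116, 241 and 365), 213 ± 50.5 in Cluster 5 and 187 ± 41.6 in neurons (113, 185 and 264), Cluster 7 being higher in 9 of 14 and 11 of 15 mice. Gabbr2, which couples the receptor to its G protein, had 228 ± 111 in neurons (0, 224 and 491) and 149 ± 74.9 in Cluster 7 (56.1, 131 and 336), neurons above in 12 of 15 mice. Gabbr1 gave 46.0% of the pair's UMIs in neurons and 88.4% in Cluster 4.

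Among glycine receptor subunits, Glra1 had 266 ± 114 CPM in neurons (143, 247 and 491), above Cluster 2 in 11 of 11 mice (log2 1.54), and made up 81.9 ± 4.99% of the alpha UMIs there (12 mice). Its share of cells was 33.7% in neurons, 1.71% in endothelial and 3.36% in red blood cells, after thinning 18.01 and 0.556% of the first pair and 0 of 67 red blood cells. The structural Glrb, which binds gephyrin, was not confined to neurons: 129 ± 37.2 in OPCs (65.1, 118 and 188), 113 ± 44.3 in Cluster 4 and 111 ± 88.1 in neurons (42.8, 82.7 and 396). OPCs were above Cluster 4 in 8 of 14 and above neurons in 10 of 14 mice. Without the barcode-sharing mice Glra1 was at 221 CPM in neurons.

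In oligodendrocyte Cluster 4 the members at 50 CPM or more also included Gria4 (206 ± 74.9), Gabbr1 (192 ± 78.5), Grik1 (114 ± 83.7), Grik4 (113 ± 63.5), Gabrb1 (67.9), Grm5 (59.6) and Gria2 (52.8). Those in Cluster 8 included Grik1, Gabbr1 (153 ± 68.3), Grm3 (146 ± 130), Glrb (98.6 ± 48.6) and Gria4 (56.6 ± 47.6). In OPCs they also included Grm7, Gabrg3 (395 ± 263), Gabrb1 (254 ± 197), Grik1 (166 ± 69.0), Gabbr1 (155 ± 50.4), Gabbr2 (87.9 ± 39.0) and Gabra3 (50.8 ± 29.1), and in Cluster 7 Grik4 (187 ± 43.9), Grin2b (58.3 ± 31.6) and Gabrg3 (55.9 ± 37.7).

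Cluster 13, labelled unknown by the submitters, had summed ependymal markers at 3434 CPM, against at most 210.3 in another cluster. Its members were Gabrb1 (260 ± 128), Grik4 (182 ± 114), Gabrg3 (168 ± 75.4), Grm7 (115 ± 71.6), Gabbr1 (86.6), Gria1 (76.4), Grid1 (51.9) and Gria4 (51.0). Fibroblasts had Grm7 (65.9 ± 49.7) and Glrb (57.5 ± 42.2), and Schwann cells Gria3 (155 ± 98.7). Red blood cells had Gria3 (88.5 ± 127), with 121 UMIs in 9 cells of which 68 came from 1 cell, and Gria4 (56.5 ± 53.6), with 58 of 98 UMIs in 1 cell. Gria4 without the barcode-sharing mice was at 85.1 in Cluster 13 and 37.1 in red blood cells. Endothelial, microglial, immune and myeloid clusters had 0 members at 50 CPM.

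Cluster 2 showed 17 members, among them Gabbr1 (181 ± 78.0), Gabrb1 (142 ± 124), Gria4 (135), Gabra2 (131), Grm5 (102), Gria1 (102), Grin2b (77.9), Grm7 (77.6), Gabra3 (73.5), Gria2 (69.4), Glrb (66.8), Grin1 (65.4), Gria3 (54.1), Grik1 (50.1) and Glra1 (50.1). Summed neuron markers were 1659 CPM there, 851 in Cluster 5 and 193 in Cluster 7, and oligodendrocyte markers 17180 in Cluster 2, 10155 in Cluster 5 and 1891 in Cluster 7. Astrocyte markers came to 7655 in Cluster 2. Neurofilament and other axon transcripts were highest in Cluster 2 (4218), followed by Cluster 5 (2228) with 1212 in neurons and 211 in Cluster 7. Neuronal receptor transcripts in Clusters 2 and 5 can therefore have come from mixed material, which was not tested.

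Astrocyte Cluster 5 carried 15 members, with Gria4 (224 ± 76.1), Gabbr1 (213 ± 50.5), Grm5 (147 ± 111), Gabrg1 (131 ± 71.1), Gria2 (91.9), Gabbr2 (87.6), Grin3a (63.2), Grm7 (56.6) and Grin2c (51.2) beside Gabrb1, Gria1, Gabra2 and Grid1 (71.4). Levels of many genes in it, receptors among them, differed with the animal number series, a split chosen after the data were seen. In this cluster Gabrb1 was at 1104, 1407 and 2569 CPM (lowest, median and highest) in the 5 mice below 10000 and at 144, 241 and 281 in the 9 above. Gria1 (295, 609.8 and 785 against 106, 159 and 275) and Grid1 (107, 141 and 231 against 9.36, 28.0 and 60.4) did not overlap either. This held for 4 of 15 members, close to the 24.7% of all 3466 genes that did not overlap. Grid1 rested on few UMIs per mouse, 2 to 15 below 10000 and 2 to 27 above, and Gria1 on 8 to 44 below. In Cluster 7 the series overlapped for 19 of 19 members, with 0.904% of 3541 genes apart. Neither was a member apart in Cluster 4 (0 of 11; 1.76% of 3582 genes), Cluster 9 (0 of 2; 0.982% of 4275) or Cluster 11 (0 of 20; 0.981% of 4077).

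**Figure D3:**
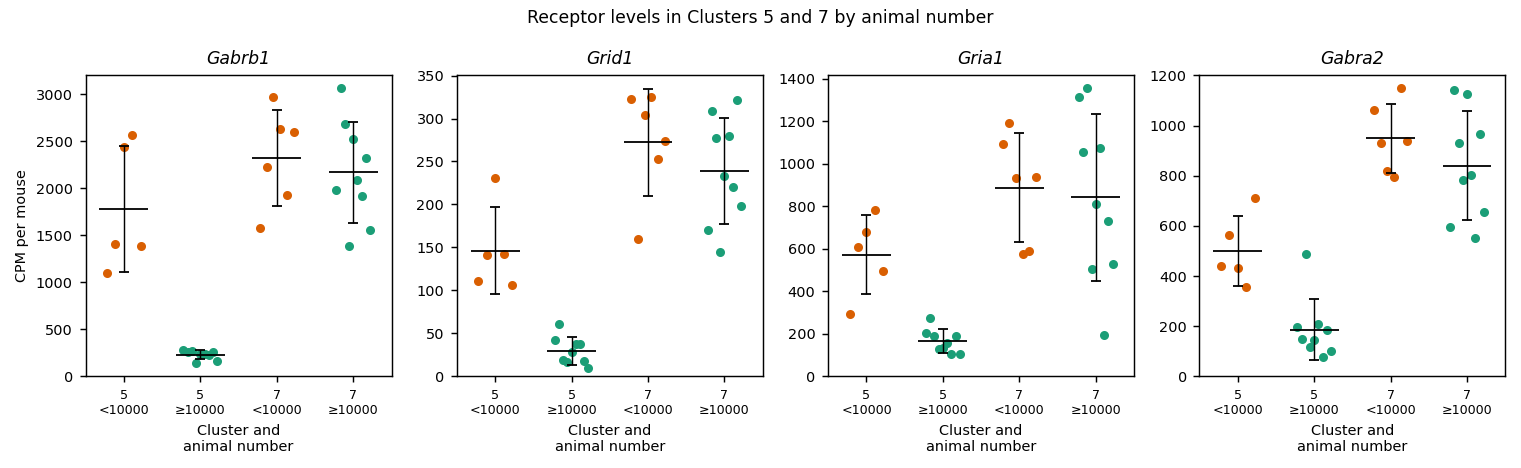
CPM (vertical axis) of Gabrb1, Grid1, Gria1 and Gabra2 in astrocyte Clusters 5 and 7, by animal number series (horizontal axis), a point per mouse and bars for mean ± SD. Median Gabrb1 in Cluster 5 was 1407 CPM below 10000 and 241 above.

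Cluster 5 cells of the series also differed in median UMIs (329.5 to 1514 below 10000, 1106 to 2276.5 above), mitochondrial percent (3.58 to 10.6 and 8.34 to 15.4) and Malat1, chosen after its values were seen (21771 to 39677 and 1762 to 7516 CPM). Their part in the receptor levels was not tested. The ratio of Cluster 7 to Cluster 5 followed: for Gabrb1 the mean log2 was 0.38 ± 0.23 below 10000, with 5 of 5 mice higher, and 2.96 ± 0.20 above, with 9 of 9 higher. For Grid1 it was 0.72 and 1.85, for Gria1 0.58 and 1.92 and for Gabra2 0.88 and 2.00. Without the barcode-sharing mice Gabrb1 stood at 2.69 (10 of 10 mice higher). Members with a higher mean in Cluster 7 numbered 20 of 23 below 10000 and 19 of 27 above. Of all genes 51.6 and 56.7% were higher there. Median log2 was 0.60 and 0.84 for members, against 0.02 and 0.12 for all genes.

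In neurons 4 of 32 members did not overlap between the series, where 4.11% of 3772 genes did not, and each was higher below 10000. Grin2b was at 341, 539 and 1189 CPM below and 128, 237 and 311 above, Gabrg3 at 424, 738 and 1585 against 124, 275 and 378, and Glra1 at 264, 378 and 491 against 143, 171 and 248. The lowest Glra1 value and the highest Grin2b and Gabrg3 values below 10000 came from WT 1 d replicate 1. That mouse had 7570 neuron UMIs, so these values rest on few UMIs. All 32 means were higher below 10000, as were 67.4% of all gene means. Neuron median UMIs were 317 to 1652.5 below and 1139 to 4216 above, and Malat1 14679 to 38309 and 7958 to 29108 CPM. Summed neuron markers did not overlap either, at 15760 to 24761 CPM below and 3436 to 12918.5 above. The part of these differences in the receptor levels was not tested.

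Injury and genotype were then tested per cell class, each mouse a replicate, with edgeR and Benjamini-Hochberg adjustment over all genes tested. The classes were neurons, astrocytes (Clusters 5 and 7), OPCs and oligodendrocytes (Clusters 4 and 8). The values tested are CPM after TMM normalization, in which the family members with most UMIs covered (lowest, median, highest) 969, 1711 and 3515 for Gria4 in OPCs, 713, 1718 and 2972 for Gabrb1 in astrocytes, 153, 239 and 352 for Gabbr1 in astrocytes, 300.2, 454 and 681 for Grin3a in OPCs, 78.9, 139.5 and 225 for Glrb in OPCs, 128, 361 and 502 for Grik4 in neurons and 479, 964 and 1968 for Grm7 in neurons. Using all 15 mice, 0 members passed in any of the 16 contrasts. The contrasts with uninjured mice share those mice.

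In neurons edgeR called 0 of 37 members at 1 d (0% of 10238 genes), 0 at 7 d (0.00977%), 0 at 14 d (0.791%) and 0 for cKO against WT after injury (0%). At unadjusted p under 0.05 there were 1, 3, 2 and 1 members, and DESeq2 called 0 in each. Median log2 ratios of members and of all genes were −0.32 and −2.98 at 1 d, 0.00 and −0.03 at 7 d, 0.00 and 0.04 at 14 d and 0.34 and 2.01 for genotype, the large medians coming with the single WT mouse at 1 d. The count of all genes called at 14 d was 81. It was 2 without WT 14 d replicate 2, 2 without cKO 14 d replicate 1, 7 without WT 1 d replicate 1, 24 without WT 7 d replicate 2, 25 without WT 7 d replicate 1, 27 without WT 14 d replicate 1, 33 without WT uninjured replicate 2, 36 without cKO 14 d replicate 2 and 52 without cKO 7 d replicate 2. DESeq2 called 0. At 7 d the 1 gene called became 0 without WT 14 d replicate 1 or 2, WT 1 d replicate 1, WT 7 d replicate 2, WT uninjured replicate 2, cKO 7 d replicate 1 or 2 or cKO uninjured replicate 1 or 2, and 2 without cKO 1 d replicate 1 or cKO 14 d replicate 1 or 2. With replicate (the batch number) as a block 7 genes were called at 7 d, 0 of them members.

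Gabbr2 had the smallest p at 1 d and for genotype in neurons. It was at 291 and 212 CPM in uninjured WT, 319 and 173 in uninjured cKO, 0 (WT), 221 and 192 (cKO) at 1 d, 351 and 368 (WT) and 173 and 268 (cKO) at 7 d, and 195 and 324 (WT) and 278 and 324 (cKO) at 14 d. Only the single WT mouse at 1 d was apart, and a fitted ratio against 0 UMIs depends on the prior count. The edgeR log2 ratio was −5.12 at 1 d (SE 1.80, p 0.00780, adjusted p 0.759, over 48 alternatives 0.324 to 1.00) and 3.06 for genotype (SE 1.48, p 0.0468, adjusted p 0.769, over the alternatives 0.379 to 1.00). Its sign was the same in 40 of 48 and 39 of 50 alternatives.

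In astrocytes edgeR called 0 of 29 members at 1 d (0.125% of 10400 genes), 0 at 7 d (0%), 0 at 14 d (0%) and 0 for genotype (0%). At unadjusted p under 0.05 there were 1, 1, 1 and 0 members, and DESeq2 called 0 members throughout and 11, 1, 1 and 2 genes. Member medians were −0.60, 0.06, 0.05 and 0.23, those of all genes −0.27, −0.02, 0.01 and 0.12. The 13 genes called at 1 d became 0 without WT 1 d replicate 1, 1 without cKO 1 d replicate 2, 4 without cKO uninjured replicate 2, 6 without cKO uninjured replicate 1, 7 without WT 14 d replicate 2, 7 without cKO 14 d replicate 1, 7 without cKO 14 d replicate 2 and 8 without cKO 7 d replicate 2. Without WT uninjured replicate 1 the count was 19 at 7 d, 1 at 14 d and 1 for genotype, and for genotype it was 1 without WT uninjured replicate 2 and 1 without cKO 7 d replicate 1. The replicate block gave 4 genes at 14 d and 1 for genotype, 0 of them members.

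Grm7 was the astrocyte member with the smallest p at 7 and 14 d. Uninjured mice had 8.66 and 23.5 (WT) and 32.0 and 27.6 CPM (cKO). Mice at 7 d had 75.3 and 42.8 (WT) and 55.1 and 40.5 (cKO), and mice at 14 d 52.8 and 87.0 (WT) and 44.0 and 44.8 (cKO). All 8 mice at 7 and 14 d lay above all 4 uninjured. At 1 d Grm7 was at 28.9 (WT) and 38.4 and 81.1 (cKO), the WT mouse below an uninjured cKO mouse (32.0). The edgeR log2 ratio was 1.14 at 7 d (SE 0.442, p 0.0194, adjusted p 0.881, over 51 alternatives 0.180 to 1.00) and 1.38 at 14 d (SE 0.401, p 0.00301, adjusted p 1.00, over the alternatives 0.00440 to 1.00). At 1 d the smallest p was that of Grin3a, at 104 and 147 (WT) and 235 and 113 (cKO) in uninjured mice and 28.9 (WT), 134 and 86.8 (cKO) at 1 d, which overlapped (edgeR log2 −1.40, p 0.0168, adjusted p 0.8005, over 49 alternatives 0.196 to 1.00). For genotype it was that of Gria1, at 607, 874, 1112, 911 and 740.1 CPM in injured WT and 518, 152, 482, 594, 619.7 and 780.3 in injured cKO (edgeR log2 −0.69, p 0.0887, adjusted p 1.00, over the alternatives 0.0919 to 1.00).

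In OPCs edgeR called 0 of 23 members at 1 d, 7 d, 14 d and for genotype (0% of 5417 genes each), with 1, 2, 3 and 0 members at unadjusted p under 0.05 and 0 by DESeq2. With the replicate block 1 gene, not a member, was called at 1 d. Gabrb2 was at 185 and 121 CPM in uninjured WT, 184 in uninjured cKO, 48.7 (WT), 27.0 and 48.6 (cKO) at 1 d, and 16.7 and 101 (WT) and 43.5 and 46.9 (cKO) at 14 d. All 3 uninjured mice were above these. It had the smallest edgeR p at 1 d (log2 −1.90, p 0.0351, adjusted p 0.842, over 25 alternatives 0.665 to 1.00) and 14 d (log2 −1.59, p 0.0109, adjusted p 0.822, over 24 alternatives 0.367 to 1.00). Grm7 had it at 7 d (log2 1.23, p 0.0307, edgeR adjusted p 0.721, over the alternatives 0.402 to 1.00), at 693 and 386 (WT) and 184 (cKO) in uninjured mice and 774 and 755 (WT) and 1016 and 457 (cKO) at 7 d. For genotype Grik5 had log2 −0.90 (p 0.0522, edgeR adjusted p 0.895, over the alternatives 0.628 to 1.00).

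In oligodendrocytes edgeR called 0 of 29 members in each contrast (0% of 8624 genes at 1 d, 0% at 7 d, 0% at 14 d and 0% for genotype). At unadjusted p under 0.05 there were 1, 0, 1 and 1 members, and DESeq2 called 0 members and 1, 1, 3 and 0 genes. At 1 d 1 gene was called by edgeR without WT 7 d replicate 1, 1 without cKO 7 d replicate 1 and 1 without cKO 7 d replicate 2. The replicate block gave 1 gene at 1 d and 6 at 14 d, 0 of them members. The smallest p at 1 d was that of Gabrb1 (0 CPM in WT and 32.0 and 94.4 in cKO at 1 d, 43.6 to 96.2 in uninjured mice; edgeR log2 −4.13, p 0.0479, adjusted p 0.849, over 26 alternatives 0.508 to 1.00). At 14 d it was that of Grm8 (15.8 to 40.2 CPM at 14 d, 7.27 to 32.6 uninjured; log2 1.42, p 0.0345, edgeR adjusted p 0.880, over the alternatives 0.537 to 1.00). For genotype Grik4 had log2 1.29 (p 0.0406, edgeR adjusted p 1.00, over the alternatives 0.427 to 1.00). The sign was the same in 23 of 26 alternatives for Gabrb1 and in 24 of 26 for Grik4.

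A further analysis took the number series into account, a step chosen after the data were seen. Either the 9 mice of 10000 and above were used alone, or the series entered the design as a term for all 15 mice. Among the 9 mice only WT and cKO at 14 d had 2 mice each, so the spread of all other groups was assumed to be that of these pairs. Leaving out the only mouse of a group took its genotype out of the injury contrast, which then covered the other genotype alone. Such leave-outs changed the comparison as well as the number of mice. In neurons at 7 d each way called 1 of the members (Glrb), beside 2.02% of 13165 genes in the 9 mice and 3.01% of 10238 with the series in the design. Glrb was at 247 (WT) and 211 CPM (cKO) in uninjured mice of 10000 and above and at 86.0 and 85.1 in those at 7 d. With numbers below 10000 it was at 162 and 80.4 uninjured and 32.0 and 49.5 at 7 d (1 UMI and 2 UMIs), so each of the 4 mice at 7 d was below the uninjured mouse of its genotype and series. By edgeR with Benjamini-Hochberg adjustment Glrb fell by log2 1.37 in the 9 mice (p 0.000391, adjusted p 0.0271) and by 1.46 with the series in the design (p 6.94e-05, adjusted p 0.00592). With all 15 mice and no series the log2 ratio was −1.10 (SE 0.398, p 0.00931, adjusted p 0.425), and over 50 alternatives, 19 of which called it, it ranged from −1.80 to −0.55 with adjusted p from 0.00290 to 1.00. Within the 9 mice the adjusted p was 0.481 without WT 7 d replicate 2, 0.480 without WT uninjured replicate 2, 0.209 without cKO 7 d replicate 2 and 0.191 without cKO uninjured replicate 2. With the series in the design it was 0.385 without WT 7 d replicate 2, 0.373 without cKO 7 d replicate 2 and 0.116 without cKO uninjured replicate 2. With the conditions of the cell names Glrb was not called either way, at log2 ratios of −1.67 in the 9 mice and −1.33 with the series in the design.

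At 14 d, 6 members were called in neurons of the 9 mice (8.08% of 13165 genes) and 4 with the series in the design (8.11% of 10238). Glrb was at 105 and 92.7 (WT) and 112 and 67.6 CPM (cKO) at 14 d, all below the 247 and 211 of the uninjured mice in that series (162 and 80.4 below 10000). It fell by edgeR log2 1.26 (adjusted p 0.00557) and 1.34 with the series in the design (adjusted p 0.00201), against −0.83 without (adjusted p 0.279, over 50 alternatives 0.000692 to 0.999). Leave-out values were 0.139 without WT uninjured replicate 2 and 0.112 without cKO uninjured replicate 2. The series design gave 0.135 without cKO uninjured replicate 2. Grik3 was at 101 and 159.7 (WT) and 116 and 168 (cKO) at 14 d and at 63.5 and 52.7 in uninjured mice of the same series (59.3 and 108 below 10000). All 4 were above those in that series. Its edgeR log2 ratio was 1.32 in the 9 mice (adjusted p 0.0338), 1.12 with the series in the design (adjusted p 0.0385) and 0.93 without (SE 0.327, p 0.00773, adjusted p 0.190, over 50 alternatives 0.0238 to 0.999). For Grik3 the 9 mice gave 0.179 without WT 14 d replicate 2, 0.197 without WT uninjured replicate 2, 0.0970 without cKO 14 d replicate 2 and 0.423 without cKO uninjured replicate 2. With the series in the design Grik3 had 0.273 without WT 14 d replicate 2, 0.0530 without WT 7 d replicate 1, 0.0570 without WT 7 d replicate 2, 0.0932 without WT uninjured replicate 1, 0.161 without WT uninjured replicate 2, 0.203 without cKO 14 d replicate 2, 0.0636 without cKO 7 d replicate 2 and 0.443 without cKO uninjured replicate 2.

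Gria1 stood at 233 and 271 CPM in uninjured neurons of 10000 and above and higher in all 4 at 14 d, 580.0 and 634 (WT) and 362 and 586 (cKO), but at 491 and 554 in uninjured mice below 10000. The edgeR log2 ratio was 1.14 in the 9 mice (adjusted p 0.0337), 0.95 with the series (adjusted p 0.0485) and 0.46 without (adjusted p 0.647, over 50 alternatives 0.0177 to 1.00). For Gria1 the 9 mice gave 0.0512 without WT 14 d replicate 1, 0.110 without WT 14 d replicate 2, 0.403 without WT uninjured replicate 2, 0.142 without cKO 14 d replicate 2 and 0.169 without cKO uninjured replicate 2. With the series in the design Gria1 had 0.0984 without WT 14 d replicate 1, 0.177 without WT 14 d replicate 2, 0.0635 without WT uninjured replicate 1, 0.372 without WT uninjured replicate 2, 0.310 without cKO 14 d replicate 2, 0.162 without cKO 1 d replicate 1, 0.188 without cKO 1 d replicate 2, 0.0563 without cKO 7 d replicate 2 and 0.329 without cKO uninjured replicate 2.

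Grik4 and Grin2d were called in the 9 mice and not with the series in the design. Grik4 was at 239.7 and 128 CPM uninjured and 373, 427, 349 and 484 at 14 d. Grin2d was at 14.1 and 30.1 uninjured (2 UMIs and 4 UMIs) and 73.0, 74.9, 44.1 and 64.3 at 14 d. Neither gene overlapped in that series. Uninjured mice below 10000 had 361 and 482 for Grik4 and 91.6 and 69.3 for Grin2d, which overlapped with 14 d. By edgeR they rose by log2 1.27 (adjusted p 0.0198, over 50 alternatives 0.0186 to 1.00) and 1.67 (adjusted p 0.0475, over the alternatives 0.0334 to 1.00). With all 15 mice the log2 ratios were 0.40 and 0.20, and over the alternatives they ran from 0.06 to 1.74 and from −0.19 to 2.39. For Grik4 the leave-outs gave 0.0867 without WT 14 d replicate 2, 0.0678 without WT uninjured replicate 2, 0.0722 without cKO 14 d replicate 2 and 0.5264 without cKO uninjured replicate 2. For Grin2d they gave 0.0636 without WT 14 d replicate 1, 0.113 without WT 14 d replicate 2, 0.0520 without WT 7 d replicate 2, 0.544 without WT uninjured replicate 2, 0.108 without cKO 14 d replicate 2 and 0.150 without cKO uninjured replicate 2. With the conditions of the cell names 0 members were called in neurons, at log2 ratios within the 9 mice of −1.26 for Glrb, 1.16 for Grik3, 1.14 for Gria1, 0.73 for Grik4 and 2.15 for Grin2d. The 2 uninjured mice of this series also differed in the make-up of their neuron cluster: summed neuron markers were 6392 and 3436 CPM against 6292 to 12918 at 7 and 14 d, oligodendrocyte markers 11721 and 12687 against 5502 to 11224, and median UMIs per neuron 1160.0 and 1139 against 1467.5 to 4216. The part of this in the receptor results was not tested.

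In astrocytes of the 9 mice 6 members were called at 7 d (13.7% of 9593 genes) and 5 at 14 d (7.61%), all higher than in uninjured mice. With the series in the design 0 were called at 7 d (1.37% of 10400 genes) and 0 at 14 d (1.04%), where 5 and 5 members had unadjusted p under 0.05 (DESeq2 was not run with the series). Gabrb1 was at 713 and 949 CPM uninjured, 2168 and 1780.2 at 7 d and 1361, 1906, 1861 and 1492 at 14 d in this series. Below 10000 it ran the other way, at 2972 (WT) and 2166 (cKO) in uninjured mice and 1718 and 1487 at 7 d. Within the 9 mice the edgeR log2 ratio of Gabrb1 was 1.23 at 7 d (adjusted p 0.00864, over 51 alternatives 3.50e-07 to 1.00) and 0.99 at 14 d (adjusted p 0.0211, over the alternatives 1.89e-06 to 1.00). With all 15 mice it was 0.08 and −0.03, and over the alternatives it ran from −0.51 to 1.62 and from −0.36 to 1.38. The make-up of the astrocyte class also differed: Cluster 7 gave 27.7 and 36.9% of its UMIs in the 2 uninjured mice, 73.6 and 71.6% at 7 d and 56.6 to 66.4% at 14 d. Within Cluster 7 Gabrb1 was at 1384 and 1560.3 CPM uninjured, 2684 and 2323 at 7 d and 1982, 3066, 2523 and 2091 at 14 d. Below 10000 it was there at 2971 and 2595 uninjured and at 2230 and 1934 at 7 d. In Cluster 5 of the series of 10000 and above Gabrb1 was at 144 to 281. The part of this make-up in the calls was not tested.

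The members called at 7 d also included Gria1 (log2 1.17, adjusted p 0.00862, over 51 alternatives 1.27e-06 to 1.00), Grid1 (1.31, adjusted p 0.0112, 9.00e-06 to 1.00), Grm3 (1.26, adjusted p 0.0108, 3.01e-05 to 1.00) and Grik4 (0.86, adjusted p 0.0412, 0.00209 to 1.00) by edgeR. With all 15 mice the log2 ratios were 0.29, 0.18, 0.50 and 0.40, and over the alternatives each took both signs. In this series both mice at 7 d were above both uninjured ones in Cluster 7 for Gria1 (1358 and 733 against 507 and 529 CPM), Grid1 (278 and 321 against 145 and 198), Grm3 (302 and 166 against 145 and 96.2) and Grik4 (240.0 and 233 against 196 and 171). Uninjured mice below 10000 had 931 and 939, 304 and 274, 92.1 and 235, and 126 and 157 there. Mice at 7 d below 10000 had 1194 and 589, 159 and 252, 133 and 140, and 133 and 140 (WT and cKO each time). These values at 7 d rested on 45 and 21, 6 and 9, 5 and 5, and 5 and 5 UMIs. Adjusted p for Gabrb1 became 0.256 without WT 7 d replicate 2 and 0.222 without WT uninjured replicate 2. For Gria1 it became 0.367 without WT 7 d replicate 2 and 0.326 without WT uninjured replicate 2. For Grid1 it became 0.181 without WT 7 d replicate 2, 0.164 without WT uninjured replicate 2, 0.0729 without cKO 7 d replicate 2 and 0.0629 without cKO uninjured replicate 2. For Grm3 it became 0.2196 without WT 7 d replicate 2, 0.198 without WT uninjured replicate 2 and 0.0540 without cKO 7 d replicate 2. For Grik4 it became 0.297 without WT 7 d replicate 2, 0.266 without WT uninjured replicate 2, 0.109 without cKO 14 d replicate 1, 0.107 without cKO 14 d replicate 2, 0.177 without cKO 7 d replicate 2 and 0.167 without cKO uninjured replicate 2. With the conditions of the cell names Grik4 and Grm3 were not called within the 9 mice, at log2 ratios of 0.77 and 0.68.

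At 14 d they also included Gabbr2 (log2 1.38, adjusted p 0.0108, over 51 alternatives 0.000121 to 1.00), Gria1 (1.08, adjusted p 0.0108, 1.38e-05 to 1.00) and Grid1 (0.95, adjusted p 0.0462, 0.000116 to 1.00) by edgeR. With all 15 mice the log2 ratios were 0.61, 0.34 and 0.03, the last from −0.39 to 1.31 over the alternatives. In Cluster 7 Gabbr2 was at 72.4 and 123 CPM uninjured and 335.5, 209, 131 and 195 at 14 d, and Gria1 at 507 and 529 against 1315, 1058, 813 and 1075, all 4 higher each time in this series (194 and 117 for Gabbr2 and 931 and 939 for Gria1 in uninjured mice below 10000). Grid1 (145 and 198 against 170.0, 309, 233 and 279.6; 304 and 274 below 10000) overlapped. For Gabbr2 the value became 0.395 without WT uninjured replicate 2. For Gabrb1 the value became 0.255 without WT uninjured replicate 2, 0.157 without cKO 14 d replicate 1, 0.0835 without cKO 14 d replicate 2 and 0.104 without cKO uninjured replicate 2. For Gria1 the value became 0.174 without WT uninjured replicate 2, 0.0855 without cKO 14 d replicate 2 and 0.0732 without cKO uninjured replicate 2. For Grid1 the value became 0.0988 without WT 14 d replicate 2, 0.3497 without WT uninjured replicate 2, 0.0789 without cKO 14 d replicate 1, 0.142 without cKO 14 d replicate 2 and 0.179 without cKO uninjured replicate 2. With the conditions of the cell names Gria1 was not called within the 9 mice, at a log2 ratio of 0.97. Calls in neurons and not in another class do not show that the classes differ, which was not tested.

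Neurons were also divided by marker UMIs into 191 glutamatergic and 609 inhibitory cells, with 156 carrying both kinds of marker and 1530 neither. Of the former, 152 and 389 rested on a single marker UMI. Across 8 mice edgeR called 0 of 27 members between the kinds (0.0898% of 2226 genes, 2 in number), 1 had unadjusted p under 0.05 and DESeq2 called 0. Grik3 had the smallest p: glutamatergic and inhibitory CPM were 246 and 114 (WT 14 d replicate 1), 167 and 209.9 (WT 14 d replicate 2), 98.5 and 212 (WT 7 d), 75.1 and 174 (cKO 14 d replicate 1), 189 and 219 (cKO 14 d replicate 2), 74.0 and 142 (cKO 1 d), 84.7 and 149 (cKO 7 d) and 86.5 and 178 (cKO uninjured), lower in glutamatergic cells in 7 of 8. The edgeR log2 ratio was −0.53 (SE 0.225, p 0.0244, adjusted p 0.890, over 12 alternatives 0.739 to 1.00). The 2 genes called of all became 0 without WT 14 d replicate 2, cKO 1 d replicate 2, cKO 7 d replicate 2 or cKO 14 d replicate 2, 1 without WT 7 d replicate 2 or cKO uninjured replicate 2, 3 without WT 14 d replicate 1 and 4 without cKO 14 d replicate 1.

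Genes that act with the receptors were looked at as 8 lists chosen by name. Of 13 AMPA auxiliary subunits 4 were highest in neurons (Cacng2, 191 ± 43.4 CPM), 4 in OPCs (Cacng4, 747 ± 125) and 1 in Cluster 7 (Shisa6, 258 ± 125). Of the kainate auxiliary pair Neto1 was highest in OPCs (224 ± 92.1) and Neto2 in Cluster 7 (47.6). Excitatory scaffold genes (14) were highest in neurons for 4, among them Dlg2 (1899 ± 1101) and Dlgap1 (1170.4 ± 590.2). Of 7 inhibitory scaffold genes 0 were highest in neurons and 2 in OPCs. Among 6 partners of delta receptors 1 was highest in neurons (Nrxn3, 1746 ± 764), 2 in OPCs and 1 in Cluster 7. Transmitter synthesis and vesicle loading genes were highest in neurons for 5 of 7, such as Slc6a5 (69.3), Slc17a6 (58.7) and Gad2 (46.7). Uptake genes were highest in Cluster 7 for 4 of 7, with Slc6a11 at 1364 ± 269, while Slc1a2 was highest in Cluster 5 (7132 ± 2068). Of the chloride transporters Slc12a5 was highest in neurons (134 ± 55.9) and Slc12a2 in Cluster 4 (748 ± 292). With all 15 mice edgeR called 0 genes of these lists for injury or genotype in any class. Nrxn3 was called between neuron kinds, lower in glutamatergic cells, but 0 genes were called there without the replicate block and without WT 14 d replicate 2, cKO 1 d replicate 2, cKO 7 d replicate 2 or cKO 14 d replicate 2. Among cell type markers edgeR called Lcn2 higher in astrocytes at 1 d (0 genes without WT 1 d replicate 1) and Aldh1l1 and Vcan higher in neurons at 14 d (0 genes by DESeq2).

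All 52 members were placed in the GENCODE vM21 gene set (mm10). Members called in a test or leading a family include Gria1 chromosome 11:57011387-57330244 (ENSMUSG00000020524.16), Gria4 9:4417896-4796234 (ENSMUSG00000025892.16), Grm7 6:110645581-111567230 (ENSMUSG00000056755.13), Grm3 5:9485541-9725170 (ENSMUSG00000003974.6), Glrb 3:80843599-80913660 (ENSMUSG00000028020.16), Grik3 4:125490700-125714173 (ENSMUSG00000001985.9) and Grik4 9:42518135-42944493 (ENSMUSG00000032017.14). The median span of members was 129.8 kb, against 18.9 kb for 24159 genes with at least 20 UMIs. GABA-A genes lie in blocks, a grouping looked at after their values were seen. On chromosome 5 Gabrg1, Gabra2, Gabra4 and Gabrb1 (ENSMUSG00000029212.11, 71658113-72149037) lie within 1398 kb and all 4 were highest in Cluster 7. The block on chromosome X (587 kb) held Gabre (Cluster 13), Gabra3 (neurons) and Gabrq (Cluster 2).

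The difference between clusters also went with gene length across all genes, which are not independent replicates. Over 7192 genes the rank correlation of span with the log2 ratio of Cluster 7 to Cluster 5 was 0.610, where 20 of 24 members (Gabrb1 among them) and 57.2% of genes were higher in Cluster 7, with medians of 0.86 and 0.10. For Cluster 4 over Cluster 8 it was 0.515 over 6812 genes (15 of 16 members and 51.2% of genes higher, medians 0.59 and 0.01). For neurons over Cluster 2 it was 0.715 over 7382 genes (32 of 33 members and 59.9% of genes higher, medians 1.38 and 0.18). The part of span in the receptor differences was not tested.

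Promoter windows of 300 bases (250 before and 50 after a transcript start) were taken from RefSeq on GRCm38.p6 for 36 member genes, 43 of 32851 windows. The motif CGGACAGC, on either strand, was in 0.901% of all windows and in 2 member windows (4.65%). GGGCGG was in 35.7% of all windows and in 22 member windows (51.2%). Gria2 carries CGGACAGC on the opposite strand, as GCTGTCCG, in chr3:80802786-80803085. Gabrb1 (chr5:71657671-71657970) and Gabra4 (chr5:71658259-71658558) start in opposite directions from sites 387 bases apart. The Gabrb1 window has 0 matches to GGGCGG and 25 CG pairs, the Gabra4 window 2 matches, read as CCGCCC, and 12 CG pairs. These windows and motifs were chosen after the values of the genes were seen. The sequences follow, motif matches in capitals.
Gria2: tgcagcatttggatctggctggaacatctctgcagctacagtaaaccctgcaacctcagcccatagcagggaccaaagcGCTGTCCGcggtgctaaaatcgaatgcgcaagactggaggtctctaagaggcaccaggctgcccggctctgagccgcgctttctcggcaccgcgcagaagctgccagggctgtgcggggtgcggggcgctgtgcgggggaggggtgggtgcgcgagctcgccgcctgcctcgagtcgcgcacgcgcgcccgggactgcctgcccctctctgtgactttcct
Gabrb1: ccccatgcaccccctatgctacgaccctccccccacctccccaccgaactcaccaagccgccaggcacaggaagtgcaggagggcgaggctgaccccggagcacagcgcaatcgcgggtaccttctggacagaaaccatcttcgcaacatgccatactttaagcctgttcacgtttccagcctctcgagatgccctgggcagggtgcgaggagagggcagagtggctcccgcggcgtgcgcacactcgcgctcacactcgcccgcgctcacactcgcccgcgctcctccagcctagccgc
Gabra4: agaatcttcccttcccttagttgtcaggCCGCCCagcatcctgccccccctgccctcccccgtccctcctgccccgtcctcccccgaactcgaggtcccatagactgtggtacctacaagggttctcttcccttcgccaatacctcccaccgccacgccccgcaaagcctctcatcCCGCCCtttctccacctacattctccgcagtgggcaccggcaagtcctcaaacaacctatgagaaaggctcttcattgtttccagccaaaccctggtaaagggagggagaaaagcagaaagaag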

How the data were processed

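Single-cell RNA sequencing libraries of 16 mouse spinal cords were taken as deposited. Per the submitters' processing notes the authors made the UMI counts with Cell Ranger on mm10 and handled them in R 4.1.2 and Seurat, without any normalization of the deposited values. The mitochondrial percent of each cell was computed by the authors, and deposited cells had at most 24.992% and at least 201 genes. Cell Ranger's version, the annotation and the intron setting are not given in the sources used here. Cluster labels are those of the authors. Removal of doublets (2 cells read as 1) is not given in the sources used here, and it was not done here.

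Counts were summed per mouse and cluster (at least 10 cells). A mouse with 1 cell was left out. Tests used edgeR 4.0.16 with limma 3.58.1 in R 4.3.3 (TMM scaling, filterByExpr, quasi-likelihood fit of 8 condition means, Benjamini-Hochberg threshold 0.05, two-sided), with DESeq2 1.42.0 as an alternative. Genotypes were averaged in injury contrasts and days in the genotype contrast. A genotype with no mouse on a side of an injury contrast was left out of it, as was such a day in the genotype contrast. Without WT 1 d replicate 1 the contrast at 1 d was therefore of cKO mice alone. Neurons were divided by UMIs of vesicular glutamate transporters or inhibitory markers. Other steps used Python 3.11.15, numpy 2.4.6, pandas 2.3.3, scipy 1.17.1 and matplotlib 3.10.9. Shares of cells have exact Clopper-Pearson 95% intervals, and mice had 536263 to 9008729 UMIs. The fits were tested on simulated data (neurons at 7 d), where most changes of log2 1 were missed. Part of the changes of log2 2 and log2 3 were missed as well. A count of 0 calls therefore does not show that levels were unchanged. In the deposited cell table, replicate and batch carry the same number for each of the 16 mice, which makes the replicate block a batch block. Deviations from the condition means of mice with the same number had a median correlation of 0.0335 in neurons (10 of 21 pairs of conditions above 0.1), 0.168 in astrocytes (12 of 21), 0.0340 in OPCs (7 of 15) and 0.255 in oligodendrocytes (17 of 21).

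Named in each cluster were members with at least 20 UMIs and a mean of at least 50 CPM, every called member, the member of each family with the most UMIs, the member with the smallest p where a contrast had no call, and genes of lists fixed by name (cell type markers, auxiliary subunits, scaffolds, delta receptor partners, transmitter synthesis, uptake and chloride transport). Some genes that the rule names are not reported here. Members and lists were chosen with earlier results of these data known. Alternatives were DESeq2, no filter on low counts, a replicate block, the conditions of the cell names, at least 30 cells, cells thinned to 1000 UMIs, Clusters 2, 5 and 7 as astrocytes, means over cells, clusters before cells left Cluster 2, and each replicate or mouse left out. Chosen after seeing the data were leaving out mice or cells with shared barcodes, either animal number series alone, and the series in the design, also with the conditions of the cell names and with each mouse left out.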

Additional observations from a re-analysis of the deposited data

How the results depend on the processing

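With all mice, 0 members were called by edgeR in the 16 contrasts, also under DESeq2, no filter on low counts, the replicate block, the cell name conditions, at least 30 cells (OPCs at 14 d could not be fitted) and without the mice or cells of shared barcodes. Between neuron kinds 0 were called as well, also under DESeq2, no filter, no replicate block and at least 30 cells, the mice of shared barcodes did not enter, and the cell name conditions were not tried. At unadjusted p under 0.05 edgeR had 0 to 3 members per contrast. Over every alternative 65 of 616 counts of called members differed from 0. Chosen after seeing the data, animal numbers of 10000 and above gave 1 member in neurons at 7 d, 6 at 14 d, and 6 and 5 in astrocytes (6 and 5, not all of them the same members, with the cell name conditions). The series in the design gave 1 and 4 in neurons and 0 in astrocytes. The cause was not tested. Leaving out each mouse, with or without the series, gave 0 to 1 in neurons at 7 d, 0 to 6 at 14 d, and 0 to 2, 0 to 11 and 0 to 12 in astrocytes at 1, 7 and 14 d.

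Totals of genes called at 1 d, 7 d, 14 d and for genotype were 0, 1, 81 and 0 in neurons, 13, 0, 0 and 0 in astrocytes and 0 in OPCs and oligodendrocytes. In neurons they were 1, 0, 0 and 0 by DESeq2, 16, 35, 480.0 and 10 without the filter, 1, 0, 20 and 1 with the cell name conditions, 0, 0, 7 and 0 at 30 cells, 0, 1, 23 and 1 without the 4 mice, 5, 266, 1064 and 21 at 10000 and above and 5, 308, 830.0 and 0 with the series in the design. Astrocytes had 11, 1, 1 and 2 by DESeq2, 70, 56, 26 and 4 without the filter, 0 with the cell name conditions, 6, 0, 0 and 0 at 30 cells, 58, 1317, 730.0 and 4 at 10000 and above and 42, 142, 108 and 1 with the series. For OPCs the totals were 0, 2, 1 and 0 by DESeq2 and 6, 15, 4 and 1 without the filter. For oligodendrocytes they were 1, 1, 3 and 0 by DESeq2, 33, 37, 52 and 7 without the filter, 0, 0, 83 and 0 at 10000 and above, 2, 7, 116 and 0 with the series and 1 at 1 d and 1 at 14 d without the 4 mice. With the cell name conditions as well, 10000 and above gave 0, 22, 5 and 0 in neurons, 120.0, 1212, 645 and 8 in astrocytes, 2, 3, 3 and 2 in OPCs and 11, 178, 267 and 8 in oligodendrocytes, and the series 61, 4, 77 and 6 in neurons, 45, 2, 22 and 10 in astrocytes, 1, 0, 0 and 3 in OPCs and 3, 2, 12 and 0 in oligodendrocytes. Between neuron kinds 2 became 9 (no filter), 1 (DESeq2), 1 (thinned), 0 (no replicate block) and 7 (at least 30 cells), and the split at 2 marker UMIs could not be fitted.

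The replicate block called 7 genes at 7 d and 97 at 14 d in neurons, 17 at 1 d, 4 at 14 d and 1 for genotype in astrocytes, 1 at 1 d in OPCs and 1 at 1 d and 6 at 14 d in oligodendrocytes, with 0 members throughout, and it changed the call of no member.

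Of 1622 alternative values of 178 levels 18 moved by at least 1 SD, 8 of them with animal numbers below 10000. WT at 1 d is 1 mouse, and mice had 18 to 351 neurons.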
